A study of Cucurbita pepo with 12 samples.

Results

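Leaves of Costata Romanesco zucchini (Cucurbita pepo) plants that grew with copper sulfate in the soil were compared with leaves of plants without added copper. The comparison was chosen by its labels and holds 2 of the 12 libraries of the series, 1 from leaf under CuSO4 and 1 from untreated leaf. The series covers root, leaf and pollen under 4 conditions, with 1 library for each combination. All plants were germinated in vermiculite for 10 days, moved singly to pots with 500 g of soil and kept under lamps for 60 days until full flowering. CuSO4 was given as its pentahydrate at 320 mg per kg of soil, about 80 mg of copper per kg. The other treated leaves came from soil with 100 mg per kg of copper oxide, either as nanoparticles (CuO NPs) or as coarser material (bulk CuO), which brings about the same amount of copper. The untreated control differs from each of them in the added copper, and the sulfate plants also received sulfate, which no other group did. Gene levels are FPKM, reads per kilobase of transcript scaled to a fixed number of reads. A gene was followed where its mean over the 4 leaf libraries was at least 1 FPKM, which kept 20834 of 27868 genes. The lowest mean kept was 1 FPKM and the highest mean not kept was 0.9985 FPKM. Of the 7034 genes not kept, 2965 were listed at 0 in all 4 leaf libraries.

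Copper is a plant nutrient that carries electrons in plastocyanin of the chloroplast and in the respiratory chain, and it is the metal of laccases and of a class of superoxide dismutases. In excess it binds to thiol groups and drives the formation of reactive oxygen species, and it disturbs photosynthesis and iron uptake. Copper sulfate dissolves readily in soil water, while copper oxide releases its copper ions more slowly. Leaf receives its copper from the root through the xylem, so leaf transcripts report on the shoot of a plant whose roots were exposed. The table gives gene IDs without names, and none of the IDs occurs in the RefSeq gene table for this species, so genes are described by ID and level, and no function or sequence is given for them. For the same reason the leaf label could not be checked against marker genes.

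With 1 library on each side the differences have no replicate check. They are described by size, with no p-value. Across all 27868 genes, the CuSO4 leaf library had a Spearman correlation of 0.951 with the bulk CuO leaf, 0.889 with the nanoparticle leaf and 0.876 with the untreated leaf. Against root libraries it was 0.644 to 0.686 and against pollen libraries 0.337 to 0.407. Genes at 1 FPKM or more numbered 20248 in the CuSO4 leaf and 19690 in the untreated leaf. Read totals are unknown. The spacing of the lowest values put the depth of the CuSO4 leaf library at 1.08 times that of the untreated leaf.

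Under CuSO4, 595 leaf genes were higher and 695 lower than in the untreated leaf by at least 2.3 on the log2(FPKM + 1) scale, which are 2.86% and 3.34% of the genes followed. The value 2.3, named in the design text of the series, is a 4.92-fold difference in FPKM + 1. These measurements come from bulk leaf tissue, so fewer cells of a type and less RNA per cell cannot be told apart. Over all genes the log2 difference had a median of 0.08 and an SD of 1.17, and 42.7% of genes lay within 0.5 of no difference. Near the threshold, 240 genes lay from 2.3 to below 2.6 on the higher side and 295 from 2.0 to below 2.3. On the lower side these numbers were 174 and 248.

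**Figure D1:**
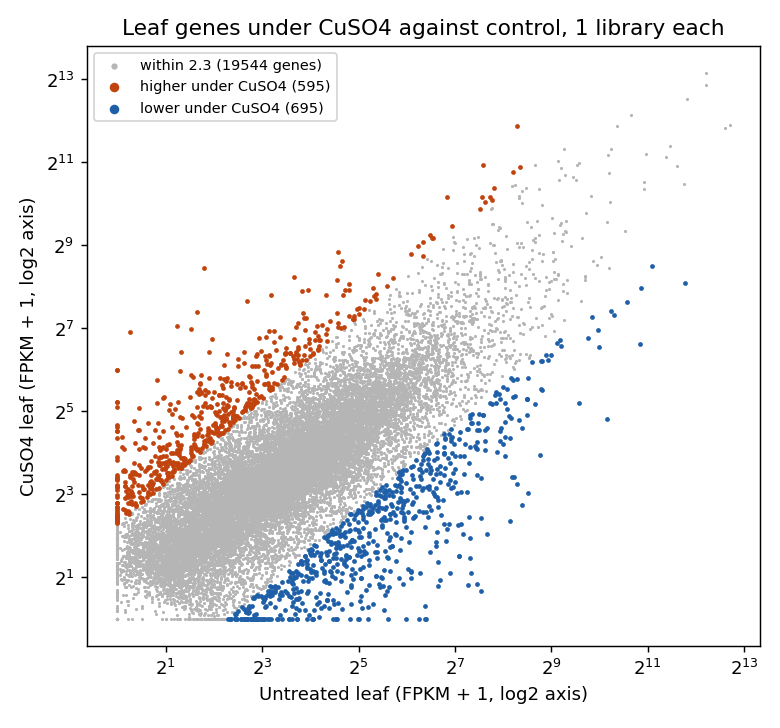
Each point is 1 of 20834 genes, with its FPKM + 1 in the untreated leaf on the horizontal axis and in the CuSO4 leaf on the vertical axis, both on log2 axes. The 595 genes higher and 695 lower by at least 2.3 are coloured, and genes listed at 0 in 1 library lie on the edges.

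Smaller and larger differences leaned in different directions. At 1 or more on the log2 scale, 3655 genes were higher under CuSO4 (17.5% of the genes followed) and 2787 lower (13.4%). At 4 or more, 40 were higher (0.192%) and 104 lower (0.499%). The crossing was also seen with library medians set equal, with 3365 higher and 3002 lower at 1 and 39 higher and 112 lower at 4. After quantile normalization, 3238 were higher and 2925 lower at 1, and 37 higher and 105 lower at 4. The balance at 2.3 turned with another pseudocount: on the log2(FPKM + 0.1) scale 1229 genes were higher and 1053 lower.

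**Figure D2:**
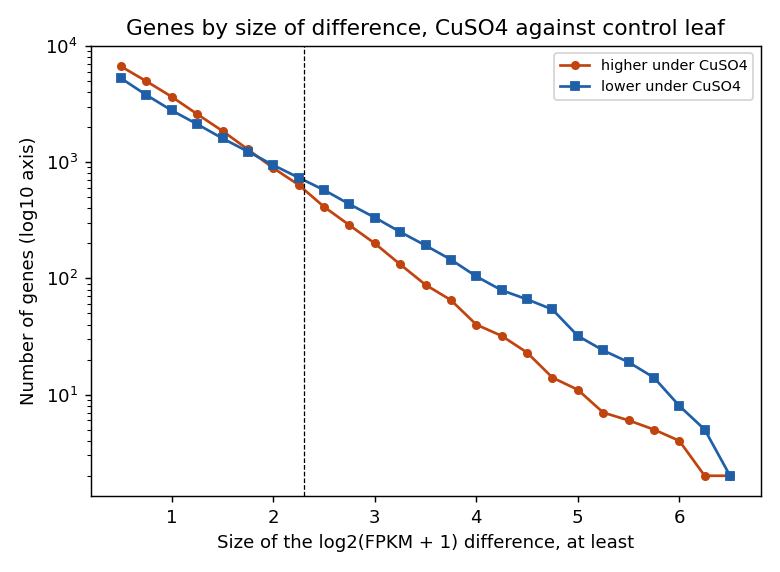
Number of leaf genes (log10 axis) that differed between CuSO4 and untreated leaf by at least the log2(FPKM + 1) size on the horizontal axis, for each direction. The lines cross between 1.75, with 1288 higher and 1234 lower, and 2, with 890 higher and 943 lower, and the dashed line marks 2.3.

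The genes leading by log2(FPKM + 1) difference stood at a low level in 1 of the compared libraries. Cp4.1LG17g09870 stood at 2.45 FPKM in the untreated leaf, 0.327 under nanoparticles, 1449 under bulk CuO and 353 under CuSO4, a log2 difference of 6.68 between CuSO4 and untreated leaf. Its level did not exceed 0.157 FPKM in any root library, and it was listed at 0 in all pollen libraries. Cp4.1LG11g04820 stood at 0.193 FPKM in the untreated leaf, 0.191 under nanoparticles, 329 under bulk CuO and 120 under CuSO4, a log2 difference of 6.66. For both genes the untreated and nanoparticle leaves were low, and the CuSO4 leaf lay between them and the bulk CuO leaf. In root, Cp4.1LG11g04820 was listed at 0.888 FPKM in the untreated plants, 4.90 under nanoparticles, 7.03 under bulk CuO and 1.64 under CuSO4.

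Both leading lower genes were expressed in untreated leaf and nearly absent under CuSO4. Cp4.1LG10g07120 stood at 184 FPKM in the untreated leaf, 103 under nanoparticles, 1.42 under bulk CuO and 0.602 under CuSO4, a log2 difference of -6.85. In root and pollen it did not exceed 0.805 FPKM in any library. Cp4.1LG01g05010 stood at 174 FPKM in the untreated leaf, 178 under nanoparticles, 10.8 under bulk CuO and 0.80 under CuSO4, a log2 difference of -6.60. The lower level was not seen in root for Cp4.1LG01g05010, which stood at 31.7 FPKM in untreated root, 30.5 under nanoparticles and 30.7 under CuSO4, and at 11.4 FPKM under bulk CuO.

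Ranked by the amount of FPKM gained or lost, other genes led. Cp4.1LG09g03060 was the most changed upward, from 4758 FPKM in the untreated leaf to 5435 under nanoparticles, 8499 under bulk CuO and 9092 under CuSO4. Its log2 difference of 0.93 is well under 2.3, although it held 0.862% of the summed FPKM in the untreated leaf and 1.62% under CuSO4. Cp4.1LG03g07500 stood at 309 FPKM in the untreated leaf, 219 under nanoparticles, 1694 under bulk CuO and 3751 under CuSO4, a log2 difference of 3.60. It differed from the higher genes leading by log2 difference in being highest under CuSO4, above bulk CuO.

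On the lower side, Cp4.1LG01g09610 went from 3500 FPKM in the untreated leaf to 271 under CuSO4, a log2 difference of -3.68, with 2941 under nanoparticles and 441 under bulk CuO. Cp4.1LG01g08450 went from 6648 FPKM in the untreated leaf to 3848 under CuSO4, a log2 difference of -0.79, with 8472 under nanoparticles and 750 under bulk CuO. For Cp4.1LG01g08450 the bulk CuO leaf was thus much lower than the CuSO4 leaf, while for Cp4.1LG01g09610 the CuSO4 leaf was the lowest of the 4.

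**Figure D3:**
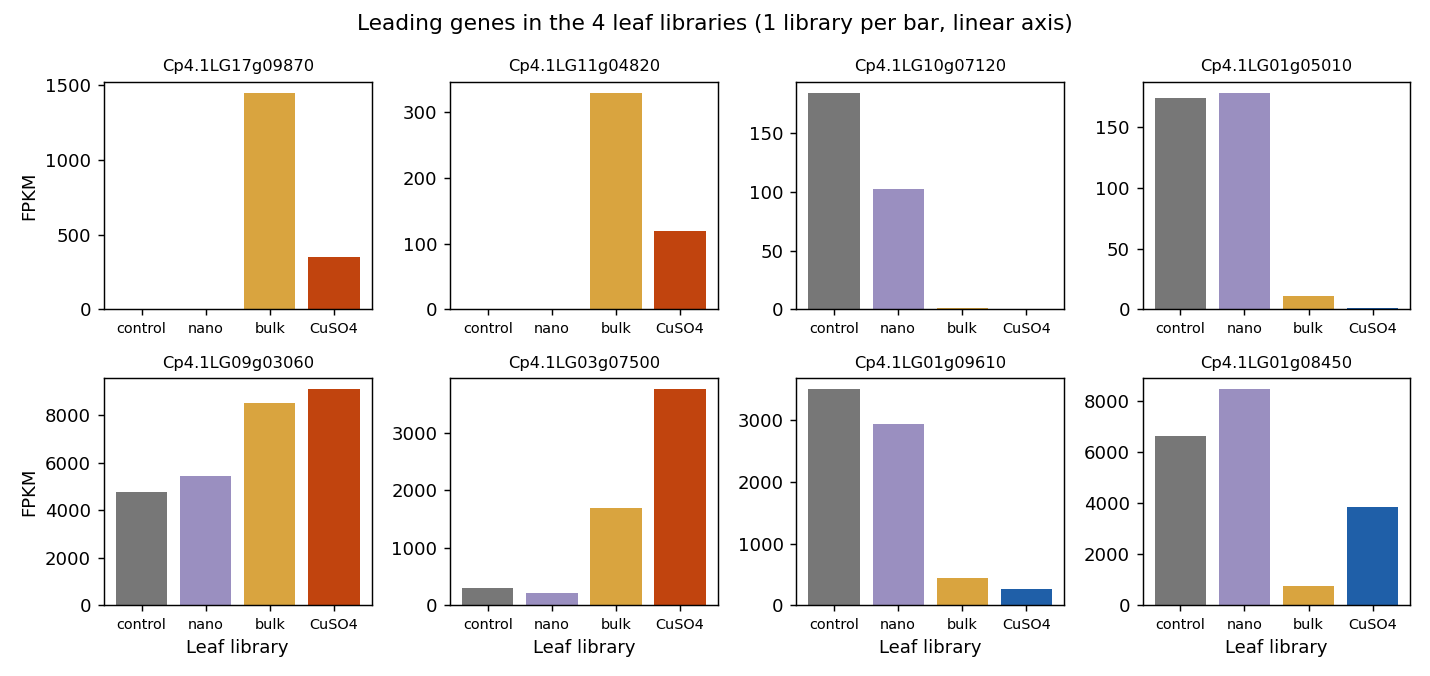
FPKM on a linear axis in each of the 4 leaf libraries for the genes leading by log2 difference (top) and by difference in FPKM (bottom), 1 library per bar. Bulk CuO and CuSO4 leaves lie on the same side of the untreated leaf in every panel, with CuSO4 at 353 and bulk CuO at 1449 FPKM for Cp4.1LG17g09870 and in the reverse order, at 3751 and 1694 FPKM, for Cp4.1LG03g07500.

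The genes past 2.3 shifted a sizeable share of the measured leaf transcript pool. The 595 higher genes together held 1.0999% of the summed FPKM in the untreated leaf and 8.65% under CuSO4, and the 695 lower genes held 12.1% and 1.24%. These values follow from how the genes were picked. In the libraries that were not compared, the higher genes held 1.23% under nanoparticles and 8.83% under bulk CuO, and the lower genes held 10.1% and 2.28%. Gains over all genes followed summed to 188098 FPKM, of which genes past 2.3 supplied 22.6%, and 33.4% of the losses came from genes past 2.3. The rest of both sums lay in genes with smaller ratios.

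Abundant leaf genes were also moved. Among the 100 genes most abundant in the mean of the nanoparticle and bulk CuO leaves, which were not compared here, 13 were higher and 10 lower by at least 2.3. At 1 or more, 45 of the 100 were higher and 23 lower, and 32 lay within 1. Over all genes followed, 2.86% were higher and 3.34% lower by at least 2.3, and 17.5% and 13.4% by at least 1. The bulk CuO leaf, used to pick the 100 genes, had a Spearman correlation of 0.951 with the CuSO4 leaf. The list can thus lean to genes that are high under CuSO4. These 100 genes held 18.8% of the summed FPKM in the untreated leaf, 20.7% under nanoparticles, 19.8% under bulk CuO and 23.4% under CuSO4. Genes were then grouped by their level in the nanoparticle and bulk CuO leaves. The SD of the log2 difference was 1.105 for the 6818 genes from 10 to 30 FPKM and 1.59 for the 142 genes at 300 FPKM or more. It was also 1.59 for the 323 genes below 1 FPKM, which can pass the minimum through the compared libraries, and 1.13 to 1.35 in the other groups. At 300 FPKM or more 8.45% of genes were higher and 8.45% lower past 2.3, against 2.33% and 2.83% from 10 to 30 FPKM.

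Most genes past 2.3 were measured at 1 FPKM or more on both sides. Of the 595 higher genes, 415 were at that level in both libraries, and 48 were listed at 0 in the untreated leaf. Of the 695 lower genes, 487 were at 1 FPKM or more in both, and 69 were listed at 0 under CuSO4. In the untreated leaf 69.7% of the higher genes reached 1 FPKM, against 93.1% of all 20834 genes, of which 183 were listed at 0. Under CuSO4 70.1% of the lower genes did, against 95.3% of all genes, of which 138 were listed at 0. Genes past 2.3 were thus more often low or at 0 than all genes, which follows in part from how they were picked. A level below 1 FPKM in untreated leaf and of 5 FPKM or more under CuSO4 was found for 229 of the 20834 genes followed. In the libraries that were not compared, 146 of these 229 were below 1 FPKM and 4 at 5 FPKM or more under nanoparticles, while 5 were below 1 FPKM and 182 at 5 FPKM or more under bulk CuO. The opposite was found for 249 of the 20834 genes, at 5 FPKM or more in untreated leaf and below 1 FPKM under CuSO4. Of these, 128 were at 5 FPKM or more and 13 below 1 FPKM under nanoparticles, and 32 and 146 under bulk CuO. Over all genes followed, 93.3% stood at 1 FPKM or more under nanoparticles and 96.7% under bulk CuO. The share of all genes at 5 FPKM or more was not counted, but quartiles bound it. In the bulk CuO leaf the lower quartile over all genes was 4.89 FPKM, just short of 5. The 182 of 229, or 79.5%, thus lay close to the share over all genes. For the nanoparticle leaf the lower quartile was 3.45 FPKM and the median 9.17 FPKM, so most genes reached 5 FPKM. The 128 of 249, or 51.4%, was thus no clear excess. The 4 of 229 and 32 of 249 lay well below the share over all genes in their library.

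The bulk CuO and nanoparticle leaf libraries share no library with the comparison of CuSO4 and untreated leaf. Between them, bulk CuO was higher by at least 2.3 in 4.34% of all genes and lower in 2.84%. Of the 595 genes higher under CuSO4, 365 (61.3%) were higher under bulk CuO than under nanoparticles by at least 2.3, and 4 were lower. These 365 are 40.3% of the 905 genes higher under bulk CuO. Of the 695 genes lower under CuSO4, 315 (45.3%) were lower by that much and 5 were higher, and the 315 are 53.3% of the 591 genes lower under bulk CuO. The median log2 difference between bulk CuO and nanoparticles was 2.64 for the higher genes and -2.19 for the lower genes, against 0.20 for all genes. Across the 20834 genes the 2 differences had a Pearson correlation of 0.762 and a Spearman correlation of 0.753. Genes are not independent replicates, and each of the 4 libraries stands for its treatment alone.

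The match between these pairs of libraries was then read by the size of the difference. Of genes 1 to below 2.3 higher under CuSO4, 13.9% were past 2.3 in the same direction between bulk CuO and nanoparticles. This share was 50.1% from 2.3 to below 3, 81.9% from 3 to below 4 and 86.2% from 4 to below 5, and all 11 genes at 5 or more passed. For lower genes it was 9.13% from 1 to below 2.3, 37.7% from 2.3 to below 3, 52.2% from 3 to below 4 and 59.7% from 4 to below 5. It was 50.0% for the 32 genes lower by 5 or more. The share past 2.3 thus went up with size in every step on the higher side, where the last step rests on 11 genes. On the lower side the last step was down. These trends depended on the cut-off. With a cut-off of 1 between bulk CuO and nanoparticles, the share for lower genes was 58.3% from 1 to below 2.3. It was 79.8% from 2.3 to below 3, then fell to 77.8%, 72.2% and, at 5 or more, 62.5%. For higher genes the share past 1 did not go up in every step and came down to 89.7% from 4 to below 5. The difference between the directions was not tested.

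**Figure D4:**
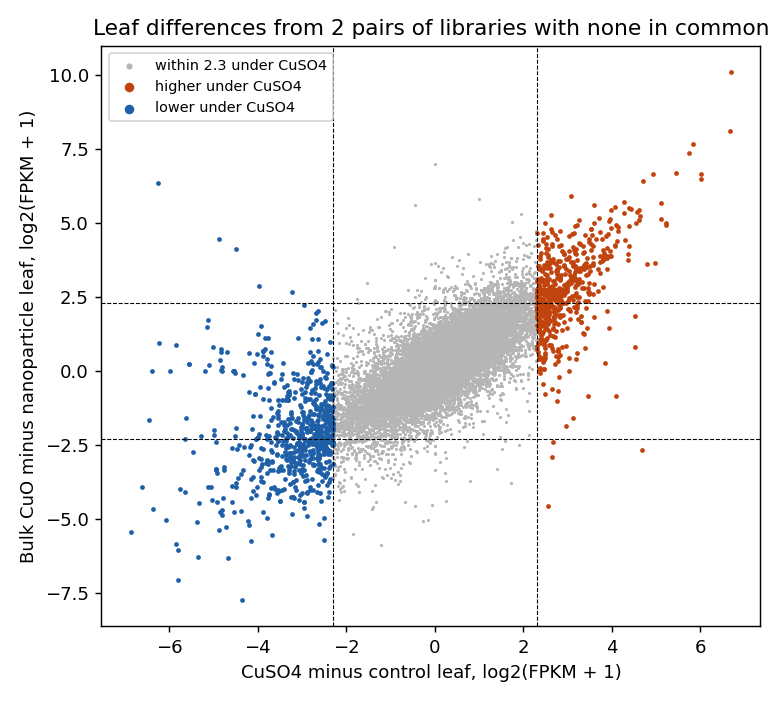
Each point is 1 of 20834 genes, with the log2(FPKM + 1) difference between CuSO4 and untreated leaf on the horizontal axis and that between bulk CuO and nanoparticle leaf on the vertical axis. The dashed lines mark 2.3 in each direction, with 365 genes past it in the upper right and 315 in the lower left.

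Bulk CuO and nanoparticles were also each compared with the untreated leaf, which is the same control library as for CuSO4, so the values are set side by side only. The 595 higher genes had a median log2 difference of 2.79 under bulk CuO (quartiles 2.22 and 3.60) and of 0.11 under nanoparticles (quartiles -0.06 and 0.38). The 695 lower genes had a median of -2.72 under bulk CuO (quartiles -3.45 and -1.95) and of -0.46 under nanoparticles (quartiles -0.97 and -0.07). Over all genes the medians were 0.18 under bulk CuO and -0.01 under nanoparticles. Levels that stood apart in the CuSO4 leaf were fewer: 60 of the 595 higher genes lay at least 1 above all 3 other leaf libraries, and 166 of the 695 lower genes at least 1 below them. Over all genes followed, 190 lay that far above in the CuSO4 leaf and 343 that far below. In the bulk CuO leaf 753 lay above and 431 below, in the untreated leaf 212 and 47, and in the nanoparticle leaf 48 and 47.

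The higher and lower genes were also followed in the other organs. In untreated leaf the median level was 2.46 FPKM for the higher and 36.8 FPKM for the lower genes, against 9.39 FPKM for all. These leaf medians follow from how the genes were picked. Whether the levels in other organs go with them was not tested. In untreated root, which was not part of the comparison, the median was 2.15 FPKM for the higher genes and 15.6 FPKM for the lower genes, against 9.11 FPKM for all genes followed. The medians stayed apart in the other root libraries, at 2.16 to 2.75 FPKM for the higher and 13.99 to 14.97 FPKM for the lower genes. In root, 66.7% of the higher genes and 88.3% of the lower genes reached 1 FPKM in the untreated library, against 90.2% of all genes. In untreated pollen 25.4% of the higher and 32.5% of the lower genes reached 1 FPKM, against 42.9% of all. In untreated root 130 of the 695 lower genes and 9 of the 595 higher genes stood at 100 FPKM or more, against 902 of the 20834 genes followed.

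**Figure D5:**
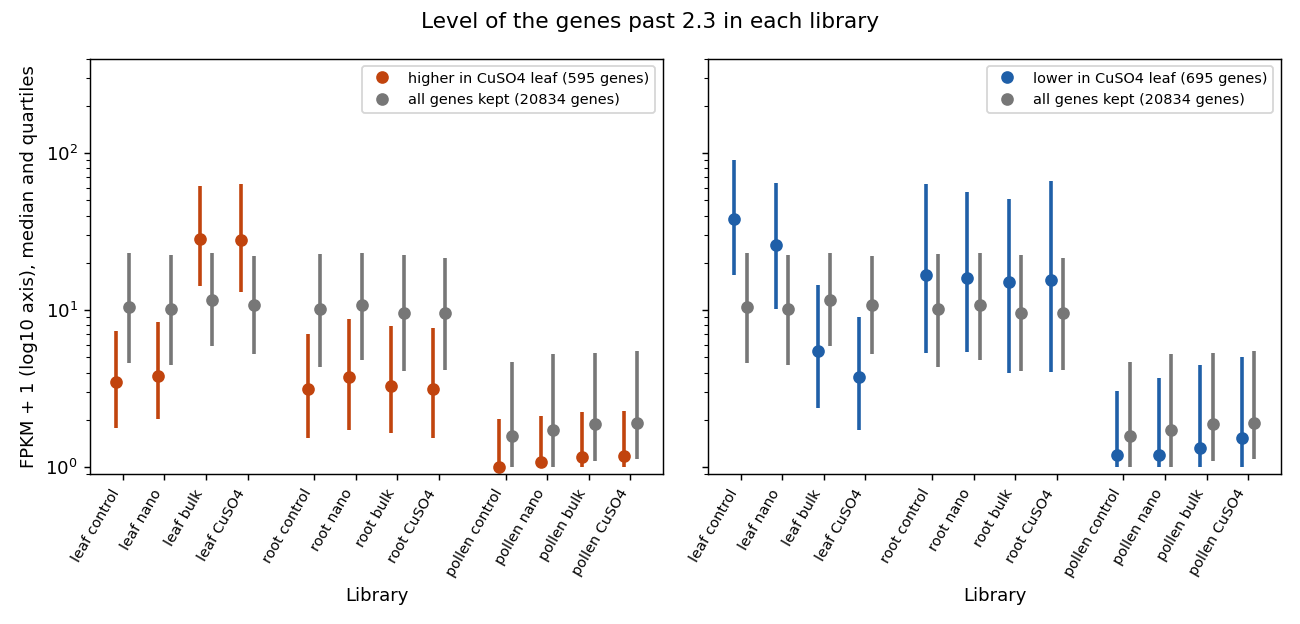
Median (point) and quartiles (bar) of FPKM + 1 on a log10 axis in each of the 12 libraries, for the 595 genes higher and the 695 lower under CuSO4 in leaf and, in grey, for all 20834 genes followed. In root the higher genes lie under the grey median, at 2.15 FPKM in untreated root, and the lower genes above it, at 15.6 FPKM.

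The same contrast, CuSO4 against untreated, was followed in root and pollen, whose libraries are not shared with leaf. In root 0.157% of all genes were higher and 0.343% lower past 2.3. Of the 413 higher leaf genes that averaged 1 FPKM or more in root, 1 was higher and 0 lower there, and of 621 lower leaf genes, 2 were higher and 11 lower. The median log2 difference in root was 0.05 for the higher and 0.03 for the lower leaf genes, against -0.08 for all, and the correlation across 19054 genes was 0.05 (Pearson). In pollen 1.95% of all genes were higher and 0.0805% lower past 2.3. Of 161 higher leaf genes that averaged 1 FPKM or more in pollen, 6 were higher and 1 lower, and of 277 lower leaf genes, 22 were higher and 1 lower. The median log2 difference in pollen was -0.03 for the higher leaf genes, 0.24 for the lower leaf genes and 0.09 for all, and the correlation across 9776 genes was -0.10 (Pearson). A gene near the 1 FPKM minimum in an organ can pass it through the treated library alone, so these counts hold only for genes that passed.

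Genes were also classed by the organ in which they stood at least 1 higher on the log2 scale than in both others, using the nanoparticle libraries of the 3 organs. Of 3423 genes led by leaf, 156 were higher under CuSO4 (4.56%) and 286 lower (8.36%). Of 3741 genes led by root, 146 were higher (3.90%) and 193 lower (5.16%), and of 12312 genes led by no organ, 248 were higher (2.01%) and 192 lower (1.56%). The direction within classes depended on the libraries that defined them. With bulk CuO libraries, 448 of 4944 genes led by leaf were higher (9.06%) and 94 lower (1.90%). Of 2997 genes led by root, 24 were higher (0.80%) and 317 lower (10.6%). The bulk CuO leaf itself differs from the untreated leaf, so a class drawn from it holds genes that are high under bulk CuO. The nanoparticle leaf in turn lay within 0.5 of the untreated leaf for 88.0% of genes. A class drawn from it thus leans to genes that are high in the compared control. Neither set of classes can therefore settle a direction for genes led by leaf or by root.

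Position was read from the IDs alone, which carry a prefix from LG00 to LG20 and a running number. Higher genes made up 2.06% to 4.39% of the genes followed per prefix and lower genes 1.90% to 4.76%, and genes past 2.3 were found under every prefix. Of higher genes, 2.87% were followed in ID order by another higher gene, close to the 2.86% of all genes, and no run was longer than 2. Of lower genes, 5.91% were followed by another lower gene, against 3.34% of all genes. There were 38 runs of lower neighbours with 79 genes, and 3 of them held 3 genes. The first of these runs in ID order went from Cp4.1LG04g08910, with 31.5 FPKM in the untreated leaf and 1.29 under CuSO4, to Cp4.1LG04g08930, with 46.2 and 4.23 FPKM. The gene between them went from 51.5 FPKM to 6.86 FPKM, but stood at 62.3 FPKM under bulk CuO, where its neighbours stood at 2.20 and 5.54 FPKM. On the log2(FPKM + 5) scale the share of lower genes followed by another was 3.10%, against 1.55% of all genes lower on that scale.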

How the data were processed

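Strand-specific mRNA libraries were sequenced as single reads of 75 bases, per the labels' protocols. The deposited table holds FPKM per gene and library. Alignment was with STAR to a cucurbit transcriptome, per the series design text, and cutadapt and StringTie appear in the submitters' processing notes, without versions or a genome build. The design text speaks of 3 biological replicates per treatment, while the labels give 1 library per organ and treatment and say nothing of pooling. No counts were used, so no count model, interval for a level or p-value was computed.

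Differences were taken on the log2(FPKM + 1) scale, where changes of low genes are understated. A gene had to average 1 FPKM or more over the 4 libraries of an organ. Relative depth was read from ratios of values from 0.05 to 1.5 FPKM. No count of reads lies behind it, and an exact 0 can be a failed estimate. Genes with values identical to another's in all libraries numbered 292 in 140 sets, leaving out genes listed at 0 throughout. Whether reads were shared between such genes was not tested. Named genes were the first 2 per direction by log2 difference, among genes with 5 FPKM or more in the higher library, the first 2 by FPKM difference, and the longest run of neighbouring IDs. The members, lists and rules were chosen with earlier results of these data known. Because 0 IDs matched the RefSeq gene table of ASM280686v2, planned lists of copper, stress and marker genes could not be applied. Alternatives were the added value, the filter, the scaling, the threshold and the gene set. The script that counts genes past the threshold was tested on simulated libraries with known changes, which is no check of replicate error. The tools were matplotlib 3.10.9, scipy 1.17.1, pandas 2.3.3 and numpy 2.4.6 under Python 3.11.15.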

Additional observations from a re-analysis of the deposited data

Results flagged for a closer look

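Under CuSO4, 22 genes were lower in leaf and higher in pollen, each by at least 2.3 on the log2 scale, which marks them because the same treatment went in opposite directions in different organs. The difference between the organs was not tested. Their median level was 85.5 FPKM in untreated leaf, 67.0 under nanoparticles, 12.3 under bulk CuO and 8.64 under CuSO4. In pollen it was 0.955 FPKM in the untreated library, 3.37 under nanoparticles, 10.2 under bulk CuO and 17.4 under CuSO4. In pollen the threshold was passed upward by 1.86% of the 9776 genes followed in both organs.

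In root, 2 genes went the opposite way to leaf, Cp4.1LG00g04280 and Cp4.1LG11g09880, which were not tested for the difference and were named after their values were seen. Both stood at 22.2 FPKM in untreated leaf and were listed at 0 in the other 3 leaf libraries. Both were listed at 0 in untreated root and at 28.7 FPKM in root under CuSO4. They also stood at 30.7 and 30.6 FPKM in root under nanoparticles, and both at 23.0 FPKM under bulk CuO. In each of these organs the untreated library thus stood apart from all treated ones, not only from CuSO4. Their values were equal in all 4 leaf libraries, and whether reads were shared between them was not tested. In pollen, 1 gene that was higher in leaf was lower, Cp4.1LG17g04570, also named after its values were seen. It was listed at 0 in untreated leaf and at 4.49 FPKM under CuSO4, and stood at 13.1 FPKM in untreated pollen and at 0 in the other 3 pollen libraries. Its difference between organs was not tested.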

How the results depend on the processing

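No paired analysis was possible because each group has 1 library, and no library could be left out. The correlation of 0.762 with the other pair of leaf libraries lay between 0.746 and 0.778 under all alternatives run. With 0.1 added before the log, 1229 genes were higher and 1053 lower (53.9% higher), the SD was 1.51, 873 higher and 524 lower genes were shared with bulk CuO against nanoparticles, 58 were lower in leaf and higher in pollen, 253 were higher and 306 lower past 4, and 8.27% of lower genes were followed by another (5.05% of all genes were lower). With 5 added these were 191 and 323 (37.2%), 0.835, 124 and 144, 2, 9 and 30, and 3.10% (1.55%). At threshold 1 they were 3655 and 2787 (56.7%), 2660 and 1759 shared, 228, and 14.8% (13.4%). The shared genes were then 72.8% of the higher and 63.1% of the lower genes. Between bulk CuO and nanoparticles, 21.7% of all genes were higher and 13.1% lower by at least 1. In pollen, 8.77% of the 9776 genes followed in both organs were higher by at least 1. With 0.1 or 5 added, such shares of all genes were not taken. A median shift gave 41.4% higher and quantile normalization 41.6%, against 46.1% as deposited, and quantile normalization left 14 genes lower in leaf and higher in pollen. Without a minimum on the mean the SD was 1.09. The share of lower genes followed by another was 4.75% without a minimum (2.79% of all genes lower), 7.11% with a minimum of 5 FPKM (3.87%), 5.12% without genes listed at 0 (3.05%) and 5.59% without genes of identical values (3.29%). Classes from bulk CuO libraries gave 448 higher and 94 lower of 4944 genes led by leaf, and 24 and 317 of 2997 led by root. Of 1218 genes led by pollen, 22 were higher and 43 lower (45 and 24 of 1358 with nanoparticle libraries). Of 11675 genes led by no organ, 101 were higher. The alternatives for pollen, past 4, neighbours and correlation were chosen after seeing the data. The cause of these shifts was not tested. For the named genes and run members, 50 values under other pseudocounts and scalings kept their direction and side of 2.3, and 2, both with 5 added, kept their direction and came under 2.3. Depth limits genes of low level most, and no replicate spread is known for any difference.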
